A study of Mus musculus with 94 samples.

Results

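The genes described here are those that encode the proteins of the cytosolic ribosome in mouse brain. They were chosen by name: a probe set that the platform annotation ties to a single gene, with a symbol made of Rpl or Rps, a number and an optional letter or l ending, or the symbols Rpsa, Rplp0, Rplp1 and Rplp2. For each gene the probe set with the highest mean was taken. This gave 46 genes, 24 of the large subunit and 22 of the small subunit, of 18194 genes that a single-gene probe set names. A further 29 ribosomal protein genes, Rpl3, Rpl5, Rpl10 and Rplp1 among them, appeared only on probe sets that name several genes and are not described.

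Total RNA from the right side of the brain of 11-week-old male C57BL6 mice was hybridised to Affymetrix whole-genome mouse arrays, 1 mouse per array. Mgmt-/- mice lack O6-methylguanine-DNA methyltransferase in all tissues, on a C57BL6 background, and wild-type (wt) mice carry the gene. Each mouse received a single intraperitoneal injection of methylazoxymethanol (MAM), a DNA-alkylating toxin of cycads, or of the acetic acid vehicle, and was killed 6, 24, 48 or 168 hr later. The 16 groups held 6 mice each, except Mgmt-/- MAM at 168 hr, wt MAM at 168 hr and wt vehicle at 48 hr with 5 each, which makes 93 arrays. Animal numbers fall into a low set and a high set, called number set 1 and number set 2, with 2 or 3 mice of each group in each set. The experiment was run in 2 laboratories, which the labels do not name. That each number set came from 1 laboratory is an assumption, and the sets are used here in place of the laboratories.

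One more Mgmt-/- MAM array at 168 hr was left out because its liver marker list had a median of 13.62 and its neuron list one of 4.73. On the other 93 arrays the neuron list had medians of 11.67 to 11.99 and the liver list 4.15 to 6.85, all on the log2 scale. The Mgmt probe set read 5.70 (median, 5.09 to 6.45) in Mgmt-/- brains and 5.73 (5.49 to 6.21) in wt brains. The groups overlapped, and no source used here says whether the probe set lies in the deleted part, so it checks no genotype.

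Ribosomal proteins are made in the cytosol, carried to the nucleolus and joined there to ribosomal RNA, and each ribosome holds nearly all of them in single copies. Their genes are among the most strongly transcribed in any cell, and their mRNAs carry a 5′ terminal oligopyrimidine (TOP) tract, a C followed by a run of C and U at the very start. Through this tract the mTOR kinase sets how fast they are translated. Several of the proteins have roles apart from the ribosome: free Rpl5 and Rpl11 bind Mdm2 and so raise p53, and Rps6 is phosphorylated by the S6 kinases.

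Start-site sequences of 6 of the genes are printed to show this tract and how unevenly the annotated starts show it. Each runs 5′ to 3′ on the coding strand from 10 bases before to 20 bases from the RefSeq start (GRCm38.p6), and capitals mark its longest unbroken run of C and T. Rpl27a and Rps9 fell after MAM in Mgmt-/- mice, Rps27 was higher in Mgmt-/- than in wt vehicle brains, Rpl11 and Rplp0 varied strongly over the groups, and Rps6 is the S6 kinase target.
Rpl27a (chr7:109519185-109519214, + strand): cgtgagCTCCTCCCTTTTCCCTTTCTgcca
Rps9 (chr7:3704031-3704060, + strand): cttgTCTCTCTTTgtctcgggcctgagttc
Rps27 (chr3:90213629-90213658, - strand): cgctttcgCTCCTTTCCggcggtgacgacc
Rps6 (chr4:86857348-86857377, - strand): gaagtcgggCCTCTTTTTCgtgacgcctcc
Rpl11 (chr4:136053374-136053403, - strand): ccataaggccacggggccggaagTCTCCCT
Rplp0 (chr5:115559457-115559486, + strand): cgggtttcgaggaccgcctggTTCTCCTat
In Rpl27a the run covers 20 bases and begins 4 bases before the annotated start, and in Rps27 and Rps6 it covers 9 and 10 bases across the start. In Rpl11 and Rplp0 the longest run is 7 bases and lies inside the transcript as annotated. Of the 40 ribosomal protein genes matched to a RefSeq start, 16 (40.0%) held an unbroken run of at least 8 C or T in this window on the coding strand, against 13.0% of 27025 genes. A C exactly at the annotated start followed by 4 pyrimidines was found in 8 of the 40 (20.0%) and in 3.0% of all genes. These windows depend on the annotated start and describe letters only.

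Most of the genes were brightly measured. Of the 46 genes 33 averaged above 10 log2 units over the 93 arrays, up to 13.30 for the Rps29 probe set, while the median of all values was 5.36. The other 13 averaged below 10, and 4 of them, Rpl12, Rpl3l, Rps16 and Rpl39l, lay below that median. Rpl3l and Rpl39l are paralogs of Rpl3 and Rpl39 that are known mainly from striated muscle and testis. Over the 16 groups the mean of a gene spanned 0.228 log2 units in the median gene, and the standard deviation within a group was 0.087. In the 33 bright genes the span ran up to 0.444, in Rpl11, and the widest spans were those of Rpl27a (0.975) and Rps4l (0.681). The values are RMA summaries of probes, 13 of the 46 probe sets carry the manufacturer's x mark for probes shared with other transcripts, and ribosomal protein genes have many processed pseudogenes. A level therefore does not rank the amounts of different mRNAs, and bright and dim describe the probe sets only.

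With all groups in a single limma fit, 31 of the 46 genes (Benjamini-Hochberg adjusted p below 0.05 over 45037 probe sets, moderated F test) varied over the 16 groups, and 32.8% of all probe sets did. The F values were highest for Rpl11 (8.87, adjusted p = 3.33e-10), Rps4l (7.37, adjusted p = 1.35e-08), Rpl41 (7.09, adjusted p = 2.85e-08), Rps27 (6.75, adjusted p = 6.81e-08) and Rplp0 (5.96, adjusted p = 5.84e-07). Rpl41 is the shortest ribosomal protein, Rps27 a zinc finger protein of the small subunit, and Rplp0 the base of the stalk on which elongation factors act. Time alone gave less: over the 4 vehicle groups 0 of 46 genes passed in Mgmt-/- mice (0% of all probe sets) and 0 in wt mice (0.115%). The count over the 16 groups was 39 with number set 2 alone (61.8% of all probe sets), 6 with number set 1 alone (12.7%) and 18 with the RNA quality index described below as a covariate (12.8%).

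The effect of MAM was asked separately in each genotype and at each time, with number set as a covariate. A gene was called when its adjusted p over all probe sets was below 0.05 and its fold change above 1.3. In Mgmt-/- brains at 6 hr 2 of the 46 genes were called and both fell: Rpl27a by 0.80 and Rps4l by 0.57 on the log2 scale (1.23% of all probe sets were called). Without the fold limit 8 genes fell and 0 rose, against 2.65% of all probe sets past the same limit. These were, besides the pair named, Rps9, Rps19, Rplp0, Rpl37a, Rpl8 and Rpl19. With an index of RNA quality as a further covariate 0 genes passed at 6 or 24 hr by either rule. In that fit hardly any probe set passed the adjusted p (0.00666% of all at 6 hr and 0.0311% at 24 hr). In RNA of whole tissue, fewer cells of a type and less RNA per cell cannot be told apart. At 24 hr only Rps4l was called (0.642% of all probe sets), and it was also the only one without the fold limit (0.915%). The next smallest adjusted p at 24 hr were those of Rps19 (0.063, difference -0.24) and Rplp0 (0.067). At 48 and 168 hr 0 genes were called, with 0.628% and 0.508% of all probe sets, and 5 and 3 genes had an unadjusted p below 0.05 in limma, against 9.55% and 10.1% of all probe sets.

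In wt brains MAM changed none of the genes by this rule: 0 of 46 were called at 6, 24, 48 and 168 hr, with 0% of all probe sets called at each time. An unadjusted p below 0.05 in limma was found for 0, 1 (Rpl12), 2 (Rpl19 and Rpl39l) and 0 of them in that order of times, against 3.08%, 5.72%, 15.01% and 3.86% of all probe sets. The median difference of the 46 genes between MAM and vehicle in wt was -0.02, 0.02, -0.01 and -0.01 log2 units. In Mgmt-/- the medians were -0.07, -0.10, -0.04 and -0.03, where all probe sets had medians of 0.01, 0.02, 0.00 and -0.01, and 38, 38, 32 and 35 of the 46 genes had negative differences. Of all probe sets 54.7%, 55.6%, 51.6% and 47.5% had positive differences. The test of whether the MAM effect differed between Mgmt-/- and wt called 0 genes at every time, with 0.00888%, 0.00222%, 1.11% and 0.0533% of all probe sets called. An unadjusted p below 0.05 in that limma test was found for 9, 8, 5 and 3 genes, against 6.61%, 4.99%, 17.0% and 7.01% of all probe sets. The counts at 48 and 168 hr lie at or below that share. The smallest adjusted p was that of Rps4l at 6 hr (0.081, difference of the effects -0.64 ± 0.12, SE).

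**Figure D1:**
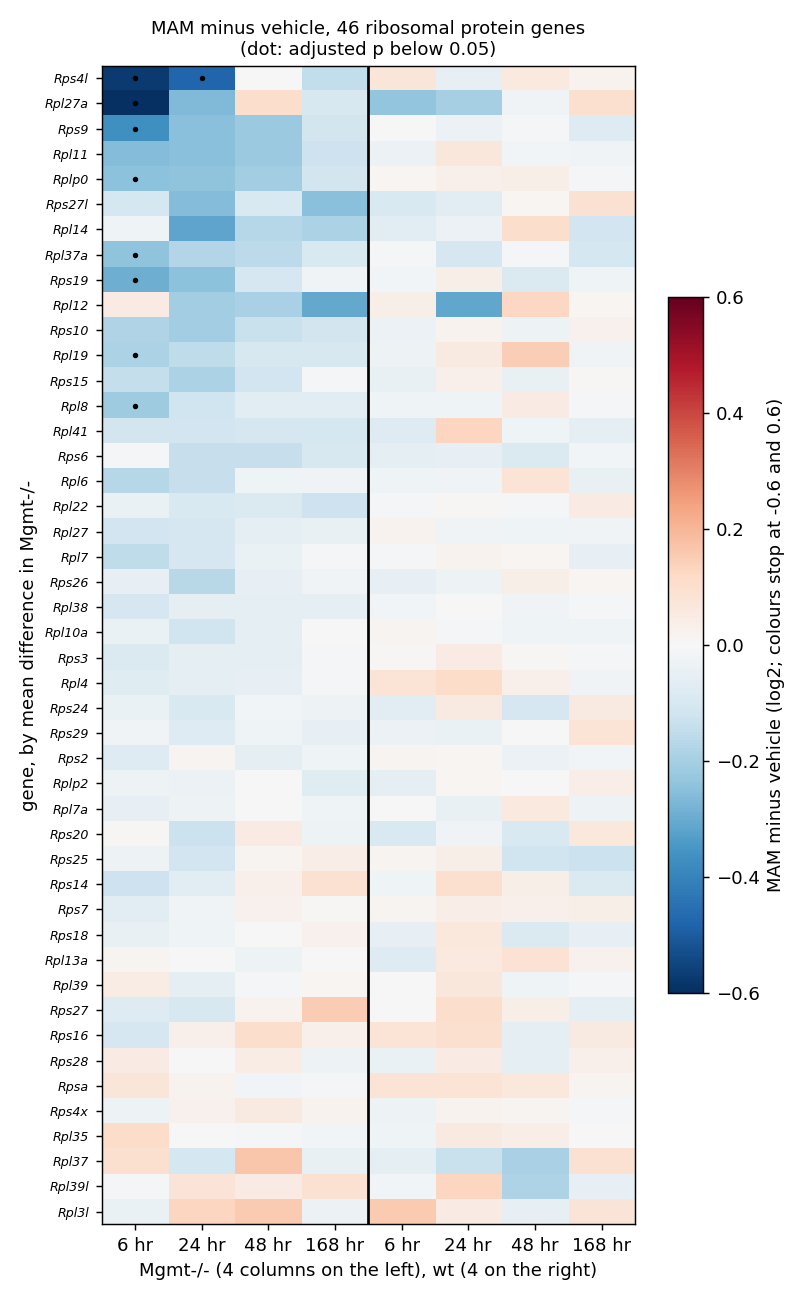
Difference between MAM and vehicle (log2) for each of the 46 genes in rows, with the 4 times in Mgmt-/- in the left columns and in wt in the right ones; blue is lower after MAM, red higher, and a black dot marks an adjusted p below 0.05. The 8 dots at 6 hr and the 1 dot at 24 hr all lie in the Mgmt-/- columns on blue cells.

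Rps4l, an S4-like gene on chromosome 6 whose widely expressed relative Rps4x lies on the X chromosome, had the smallest adjusted p of the 46 genes at 6 and at 24 hr. At 6 hr it read 8.30, 8.13, 8.06, 7.89, 8.18 and 8.33 in Mgmt-/- MAM brains, against 8.59, 8.89, 8.73, 8.57, 8.84 and 8.70 in Mgmt-/- vehicle brains. The groups did not overlap. It fell by 0.57 ± 0.09 log2 units (SE, adjusted p = 0.0012), and by 0.58 in number set 1 and 0.57 in number set 2. In wt brains at 6 hr Rps4l read 9.10, 8.89, 9.004, 8.49, 8.72 and 8.77 after MAM and 8.75, 8.93, 8.79, 8.82, 8.67 and 8.58 after vehicle, and these groups overlapped.

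At 24 hr Rps4l read 8.31, 8.41, 8.21, 7.71, 8.51 and 7.88 in Mgmt-/- MAM brains, against 8.73, 8.62, 8.57, 8.67, 8.67 and 8.63 in Mgmt-/- vehicle brains. Every MAM array was again below every vehicle array, with a wider spread after MAM (SD 0.315 and 0.055). It fell by 0.48 ± 0.11 (SE, adjusted p = 0.040), by 0.33 in set 1 and 0.62 in set 2, and this call was lost on leaving out any of 13 of the 24 arrays. At 48 hr the means were 8.42 ± 0.15 after MAM and 8.42 ± 0.265 after vehicle (SD, n = 6 each), and at 168 hr 8.38 ± 0.15 (n = 5) after MAM and 8.51 ± 0.165 (n = 6) after vehicle. Rps4x gave differences of -0.03, 0.02, 0.06 and 0.02 at the 4 times, with adjusted p from 0.83 to 0.94.

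Rpl27a, a protein of the large subunit, had the largest difference and the least even one. At 6 hr it read 6.34, 6.03 and 6.66 in Mgmt-/- MAM brains of number set 1 and 6.38, 6.51 and 6.81 in set 2. The Mgmt-/- vehicle brains read 7.49, 7.35 and 7.89 in set 1 and 7.16, 7.05 and 6.60 in set 2. It fell by 0.80 ± 0.17 (SE, adjusted p = 0.011), and the difference was -1.24 in set 1 and -0.37 in set 2, where the groups overlapped. The Mgmt-/- vehicle brains at 6 hr were the highest group mean of this gene, 7.26 ± 0.435, with 6.52 ± 0.31 in wt vehicle brains (SD, n = 6 each). Its other probe set, far dimmer at a mean of 3.84, differed by 0.05 (adjusted p = 0.85).

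**Figure D2:**
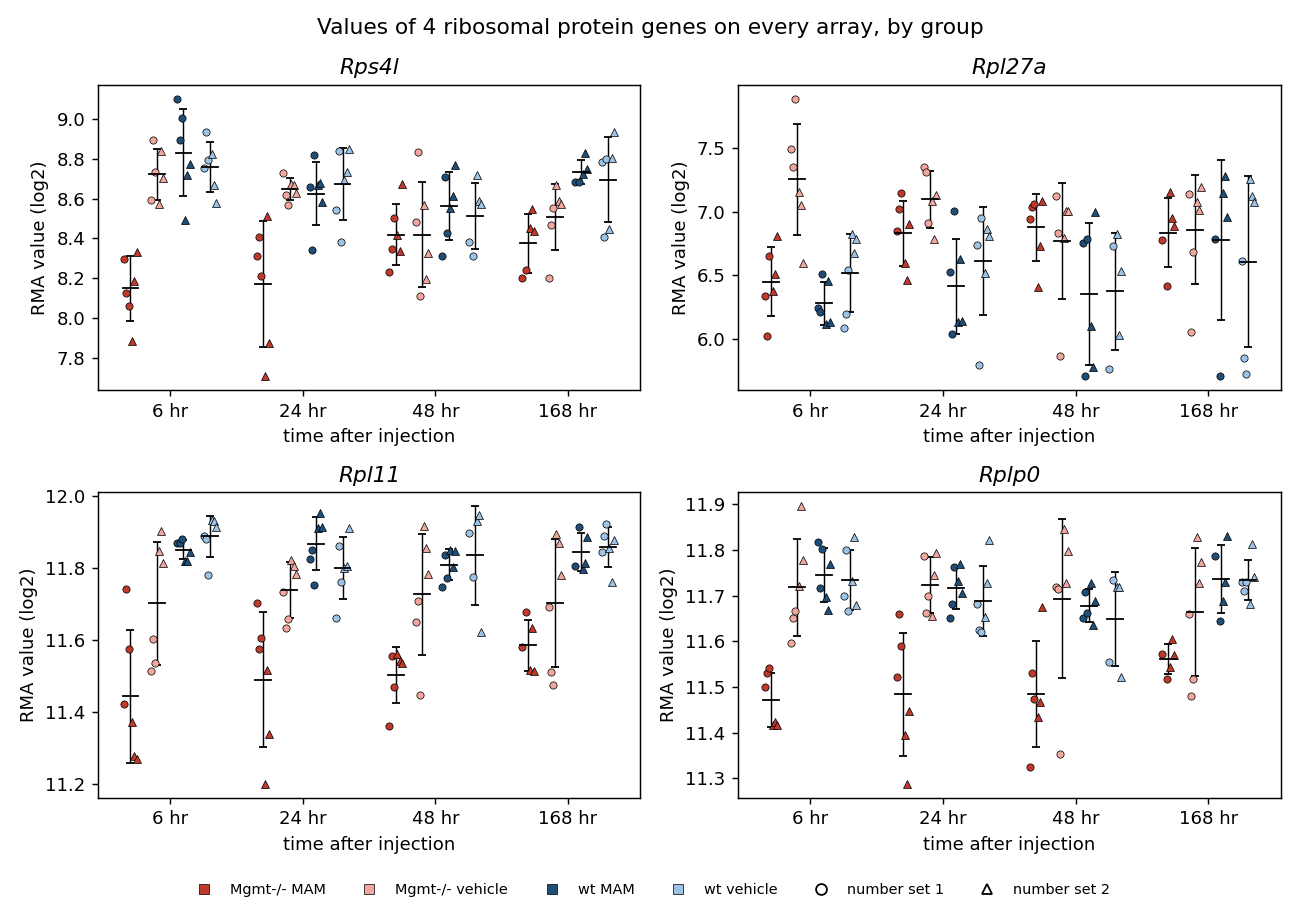
RMA values (log2) of Rps4l, Rpl27a, Rpl11 and Rplp0 on each array by time and group, with circles for number set 1, triangles for number set 2, and the group mean ± SD as a bar. At 6 hr every Mgmt-/- MAM array of Rps4l lies at 8.33 or below and every Mgmt-/- vehicle array at 8.57 or above.

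Of the small subunit proteins, Rps9, which helps decoding accuracy in yeast, read 11.45, 11.54, 11.56, 11.31, 11.23 and 11.27 in Mgmt-/- MAM brains at 6 hr. The Mgmt-/- vehicle brains read 11.69, 11.72, 11.78, 11.72, 11.82 and 11.81, and the groups did not overlap. Rps9 fell by 0.37 ± 0.06 (SE, adjusted p = 0.0019), just short of the fold limit of 0.379 on the log2 scale. A second Rps9 probe set, at a mean of 10.25, differed by 0.15 (adjusted p = 0.68), so the probe sets of this gene disagree. Rps19, mutated in Diamond-Blackfan anaemia in humans, averaged 11.22 ± 0.10 in Mgmt-/- MAM and 11.51 ± 0.15 in Mgmt-/- vehicle brains at 6 hr (SD, n = 6 each). It fell by 0.29 ± 0.06 (SE, adjusted p = 0.013), by 0.09 in set 1 and 0.50 in set 2. Rps6 differed by -0.01 ± 0.09 (adjusted p = 0.98) and Rpsa, which is also known as a laminin receptor, by 0.07 ± 0.07 (adjusted p = 0.73).

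Of the stalk proteins, Rplp0 read 11.50, 11.53, 11.54, 11.42, 11.42 and 11.42 in Mgmt-/- MAM brains at 6 hr, against 11.60, 11.65, 11.67, 11.72, 11.89 and 11.78 in Mgmt-/- vehicle brains. All 6 MAM arrays lay below all 6 vehicle arrays. It fell by 0.25 ± 0.06 (SE, adjusted p = 0.016), by 0.11 in set 1 and 0.38 in set 2, and the differences at 24, 48 and 168 hr were -0.24 (adjusted p = 0.067), -0.21 (0.28) and -0.11 (0.55). Its partner Rplp2, one of the acidic proteins that Rplp0 holds, differed by -0.03 at 6 hr (adjusted p = 0.88). Rpl22, which binds RNA and has a role in T cell development in mice, differed by -0.04 (adjusted p = 0.82).

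Of the other large subunit genes that fell at 6 hr in Mgmt-/- mice, Rpl37a fell by 0.24 ± 0.06 (adjusted p = 0.026), Rpl8 by 0.21 ± 0.05 (adjusted p = 0.033) and Rpl19 by 0.19 ± 0.05 (adjusted p = 0.032; SE throughout). In set 2 they fell by 0.34, 0.33 and 0.28 in that order, while in set 1 they fell by 0.14, 0.10 and 0.10. A dimmer Rpl37a probe set fell by 0.35 (adjusted p = 0.016) and the third differed by -0.09 (adjusted p = 0.51). Rpl13a, part of a complex that silences mRNAs of the interferon response in human cells, gave split readings. Its brightest probe set differed by 0.02 (adjusted p = 0.94), while the next, at 12.17 on average, fell by 0.41 ± 0.06 (adjusted p = 0.0014), by 0.24 in set 1 and 0.59 in set 2.

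Rpl11, the Mdm2-binding protein, had the highest F value over the groups. At 6 hr it read 11.42, 11.74, 11.57, 11.37, 11.28 and 11.27 in Mgmt-/- MAM brains, against 11.51, 11.60, 11.54, 11.85, 11.90 and 11.81 in Mgmt-/- vehicle brains. The last 3 of each row are number set 2, where the groups lay far apart, while in set 1 they overlapped. The difference was -0.26 ± 0.08 (SE, adjusted p = 0.087), with 0.03 in set 1 and -0.55 in set 2. The differences at 24 and 48 hr were -0.25 (adjusted p = 0.13) and -0.22 (adjusted p = 0.19, the smallest of the 46 genes at that time). In wt brains Rpl11 lay between 11.82 and 11.88 after MAM and between 11.78 and 11.93 after vehicle at 6 hr.

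Set against wt mice that also received MAM, Rpl11 was lower in Mgmt-/- mice at each time: by 0.41 at 6 hr (adjusted p = 9.6e-04), 0.38 at 24 hr (adjusted p = 0.0012), 0.31 at 48 hr (adjusted p = 0.0032) and, last, 0.26 at 168 hr (adjusted p = 0.049). In vehicle, Rpl11 of number set 1 was also lower in Mgmt-/- than in wt brains at 6, 48 and 168 hr, without overlap. At 6 hr the ranges were 11.51 to 11.60 and 11.78 to 11.89, and at 168 hr 11.47 to 11.69 and 11.84 to 11.92. In set 2 at 6 hr they were 11.81 to 11.90 and 11.91 to 11.93. The vehicle ranges overlapped in set 2 at 24, 48 and 168 hr and in set 1 at 24 hr. In the comparison after MAM at 6 hr Rpl11 and Rps4l were the genes called (7.22% of all probe sets). Without the fold limit 6 genes were lower and 3 higher (12.6%). The lower ones were Rpl11, Rpl19, Rplp0, Rps4l, Rps6 and Rps9, and the higher ones Rpl39, Rps18 and Rps28. At 24 hr Rps4l was called (7.38%), and 4 genes (Rpl11, Rplp0, Rps4l, Rps6) were lower and 1 (Rpl7a) higher without the fold limit (12.3%). At 48 hr 0 were called (9.32%), and without the fold limit Rpl11 and Rps9 were lower and Rpl3l, Rps18, Rps25 and Rps27 higher (19.7%). At 168 hr 0 were called (2.38%), and without the fold limit Rpl11, Rps4l and Rps27l were lower and Rps27 higher (3.91%). At that time Rps27 averaged 6.95 ± 0.07 in Mgmt-/- MAM and 6.65 ± 0.07 in wt MAM brains (SD, n = 5 each, no overlap), a difference of 0.29 (adjusted p = 0.024). Its relative Rps27l averaged 8.35 ± 0.175 in Mgmt-/- MAM and 8.72 ± 0.17 in wt MAM brains (SD, n = 5 each, overlapping), a difference of -0.37 (adjusted p = 0.043). With the 3′/5′ index, an RNA quality measure described below, as a covariate, 1, 0, 1 and 0 genes passed the adjusted p at the 4 times, against 9, 5, 6 and 4 without it. Rpl11 was not among them, with differences of -0.44, -0.36, -0.21 and -0.20. Of all probe sets 2.69%, 3.09%, 1.98% and 2.3% passed in the fit with the index. With number set 1 alone 2, 1, 0 and 0 genes passed, against 5.64%, 2.57%, 3.1% and 0.506% of all probe sets. The Mgmt-/- MAM arrays in this comparison are the same as in the comparison with vehicle.

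Between the genotypes in vehicle, 1 of 46 genes was called at 6 hr, Rpl27a, higher by 0.74 ± 0.17 (SE, adjusted p = 0.0095; 4.19% of all probe sets), with a difference of 1.299 in set 1 and 0.17 in set 2. Without the fold limit 3 genes were higher in Mgmt-/- brains (Rpl27a, Rps7 and Rps18) and 1 lower, Rps6, by 0.36 ± 0.09 (adjusted p = 0.013), against 6.89% of all probe sets. At 24 hr 0 genes were called (5.78%), but 5 were higher without the fold limit (9.15%). Rpl41 averaged 13.01 ± 0.13 in Mgmt-/- and 12.67 ± 0.09 in wt vehicle brains (SD, n = 6 each), a difference of 0.34 ± 0.07 (SE, adjusted p = 0.0032). Rps27 averaged 6.84 ± 0.115 in Mgmt-/- and 6.50 ± 0.08 in wt vehicle brains, a difference of 0.34 ± 0.07 (SE, adjusted p = 0.0041), and the arrays of these groups did not overlap for either gene. The other 3 were Rps18, Rpl27 and Rps28, higher by 0.28, 0.23 and 0.20. At 48 and 168 hr 0 were called, with 3.54% and 0.384% of all probe sets. An unadjusted p below 0.05 in limma was found for 7 and 6 genes, against 18.4% and 12.4% of all probe sets, so these counts lie near that share. The RNA quality index described below also separated the genotypes in vehicle, at 0.417 to 0.460 in Mgmt-/- and 0.269 to 0.336 in wt brains at 6 hr, and at 0.433 to 0.533 in Mgmt-/- and 0.268 to 0.373 in wt brains at 24 hr. With it as a covariate 0 genes passed the adjusted p at 6 and at 24 hr, against 4.47% and 5.36% of all probe sets. The median gene was higher by 0.08, 0.10, 0.06 and 0.01 in Mgmt-/- brains at the 4 times.

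None of the paralogs other than Rps4l passed the test between MAM and vehicle in Mgmt-/- brains. Rps27l, a relative of Rps27 that p53 induces in human cells, read 8.33 ± 0.13 in Mgmt-/- MAM and 8.43 ± 0.19 in Mgmt-/- vehicle brains at 6 hr (SD, n = 6 each; adjusted p = 0.58). At 168 hr it read 8.35 ± 0.175 (n = 5) after MAM and 8.60 ± 0.175 (n = 6) after vehicle, a difference of -0.25 with adjusted p = 0.34. Rps27 itself differed by -0.08 at 6 hr and by 0.15 at 168 hr (adjusted p = 0.70 and 0.46). Rpl39 and Rpl39l differed by 0.05 and -0.01 at 6 hr (adjusted p = 0.80 and 0.97), and Rpl3l by -0.04 (adjusted p = 0.96).

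The number sets did not carry the MAM difference equally. In Mgmt-/- brains the median difference of the 46 genes at 6 hr was -0.01 in set 1 and -0.14 in set 2, with 23 and 40 genes negative, and at 24 hr 0.00 and -0.19, with 23 and 44 negative. With set 2 alone 12 genes at 6 hr and 11 at 24 hr fell by the adjusted p and 0 rose, where 19% and 5.75% of all probe sets passed. With set 1 alone 2 and 0 genes passed, where 1.23% and 1.22% of all probe sets did. A test of the difference between the sets, added after these values were seen, called 5 genes at 6 hr (4 more negative in set 2 and Rpl27a more negative in set 1), against 23.5% of all probe sets. At 24 hr it called 4 genes, all more negative in set 2, against 7.71%. The count of 5 of 46 at 6 hr lies below the share of all probe sets, and that of 4 of 46 at 24 hr lies close to it.

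**Figure D3:**
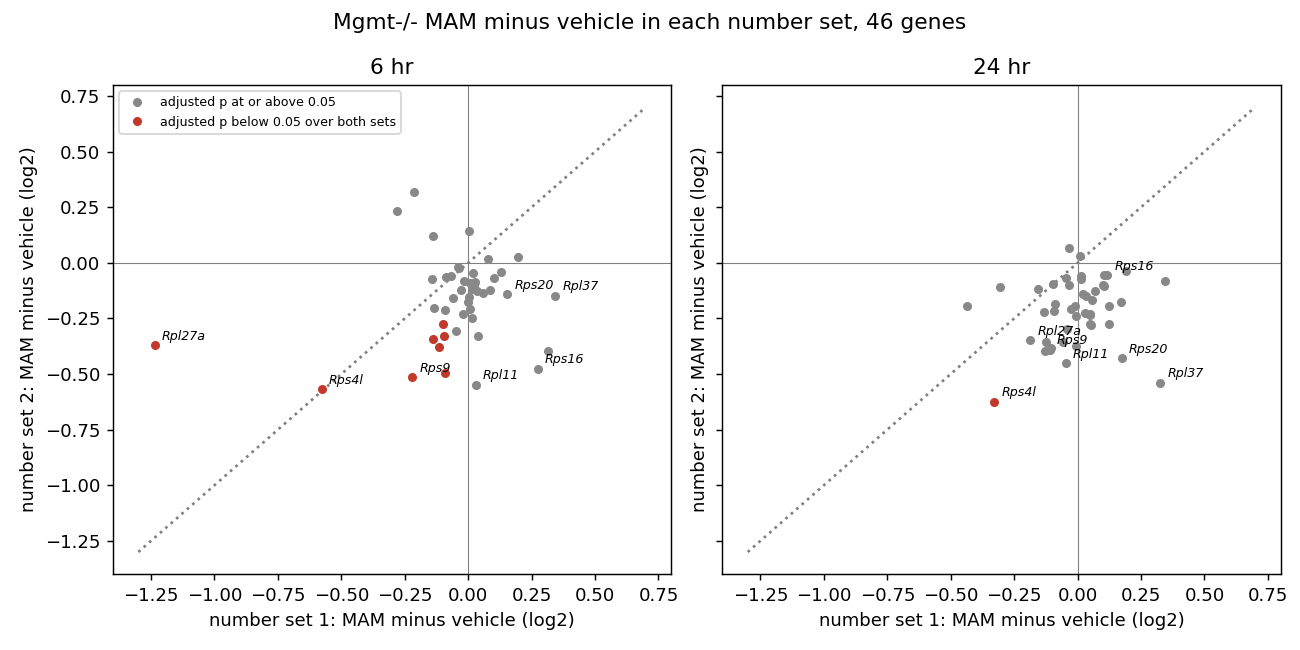
Difference between Mgmt-/- MAM and Mgmt-/- vehicle (log2) of each of the 46 genes in number set 1 (x axis) and number set 2 (y axis) at 6 and 24 hr, with red for an adjusted p below 0.05 over both sets and a dotted line of equality. Most points lie below 0 on the y axis and on both sides of 0 on the x axis.

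The same split showed in the mean deviation of the 33 bright genes on each array. In set 2 at 6 hr it was -0.083 to -0.068 on the 3 Mgmt-/- MAM arrays and 0.064 to 0.161 on the 3 Mgmt-/- vehicle arrays. At 24 hr it was -0.149 to -0.075 after MAM and 0.042 to 0.127 after vehicle. In set 1 the groups overlapped at both times, with -0.063 to 0.022 after MAM and -0.031 to 0.000 after vehicle at 6 hr. The Mgmt-/- vehicle arrays of set 2 averaged 0.111, 0.091, 0.101 and 0.111 at the 4 times, and the wt vehicle arrays of that set 0.004, -0.021, -0.020 and 0.075. The Mgmt-/- vehicle arrays of set 2 thus lay above all wt vehicle arrays of that set at 6, 24 and 48 hr, and overlapped them at 168 hr. They also stood apart in a marker list of endothelial cells (5 genes, median), which in set 2 at 6 hr read 6.72 to 7.22 on the Mgmt-/- MAM arrays and 6.13 to 6.34 on the Mgmt-/- vehicle arrays. In set 1 it read 6.65 to 7.11 after MAM and 7.02 to 7.24 after vehicle. The microglia list read 7.09 to 7.62 after MAM and 6.37 to 7.64 after vehicle in set 2 at 6 hr. In set 1 at 6 hr it was lower after MAM without overlap, at 7.07 to 7.68 after MAM and 7.85 to 8.08 after vehicle. The testis list in set 2 at 6 hr read 4.62 to 5.40 after MAM and 5.16 to 5.83 after vehicle. These testis readings lie near the median of all values (5.36). At 24 hr the endothelial list of set 2 overlapped, at 6.73 to 7.08 after MAM and 6.38 to 6.82 after vehicle. In set 1 at 24 hr it was lower after MAM without overlap, at 6.61 to 7.04 against 7.29 to 7.78 after vehicle. The microglia list of set 1 at 24 hr was also lower, at 7.41 to 7.64 after MAM and 7.89 to 8.14 after vehicle. In set 2 at 24 hr the microglia list overlapped, at 7.60 to 7.67 after MAM and 7.46 to 7.64 after vehicle. The oligodendrocyte list was lower after MAM in set 1 at 24 hr (12.08 to 12.16 against 12.21 to 12.46) and overlapped in set 2. The liver list was higher after MAM in set 1 at 6 hr (4.86 to 6.12 against 4.15 to 4.53) and 24 hr (4.86 to 5.68 against 4.37 to 4.74). In set 2 the liver list overlapped at 6 hr and was higher at 24 hr (4.91 to 5.56 against 4.78 to 4.83). The part of these differences in that of the ribosomal protein genes was not tested.

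A measure of RNA quality moved with MAM and with genotype. The 3′/5′ index, which averages the 3′ minus 5′ differences of Gapdh and of beta-actin controls in log2 units and is higher in degraded RNA, was 0.633 ± 0.061 in Mgmt-/- MAM and 0.434 ± 0.016 in Mgmt-/- vehicle brains at 6 hr (SD, n = 6 each). The groups did not overlap (exact permutation within number sets, two-sided p = 0.005, the smallest this design allows, adjusted p = 0.02 over 8 comparisons). At 24 hr it was 0.627 ± 0.091 after MAM and 0.481 ± 0.037 after vehicle (exact permutation p = 0.005, adjusted p = 0.02), and at 48 hr 0.540 ± 0.061 after MAM and 0.423 ± 0.056 after vehicle (exact permutation p = 0.01, adjusted p = 0.0267). At 168 hr it was 0.520 ± 0.034 after MAM (n = 5) and 0.552 ± 0.138 after vehicle (n = 6; exact permutation p = 0.66). In wt brains the index was 0.378 ± 0.103 after MAM and 0.313 ± 0.024 after vehicle at 6 hr (exact permutation p = 0.125), and it was also higher after MAM at 24 hr and 168 hr (exact permutation adjusted p = 0.032 for each). With the index as a covariate, 0 of the 46 genes were called in Mgmt-/- at any time, and the difference of Rps4l at 6 hr was -0.40 (adjusted p = 0.41) and that of Rps9 -0.49 (adjusted p = 0.065). Of all probe sets 0.00666%, 0.0311%, 0.0866% and 1.44% passed the adjusted p in that fit at the 4 times. Index and treatment move together at 6, 24 and 48 hr, so such a fit cannot tell them apart. With the index 35, 42, 20 and 37 of the 46 differences were negative at the 4 times, against 38, 38, 32 and 35 without it, and the medians were -0.11, -0.16, 0.02 and -0.03. The median at 48 hr thus changed sign.

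**Figure D4:**
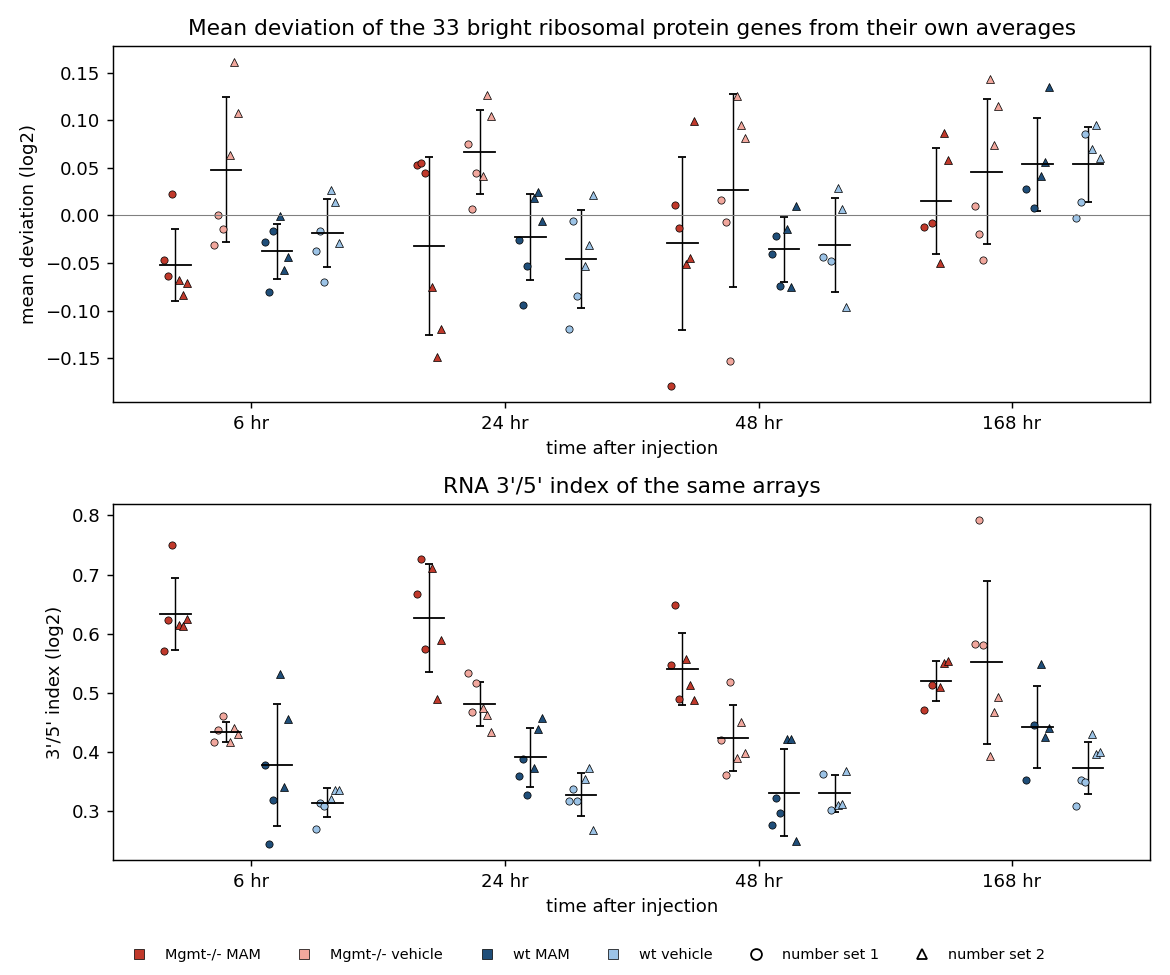
Upper panel: mean deviation (log2) of the 33 bright ribosomal protein genes from their own averages over 93 arrays, on each array; lower panel: the 3′/5′ index (log2) of the same arrays, with group mean ± SD. In number set 2 (triangles) the Mgmt-/- MAM arrays at 6 and 24 hr lie below the Mgmt-/- vehicle arrays, and the index is higher in all Mgmt-/- MAM arrays than in all Mgmt-/- vehicle arrays at 6 hr.

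Genes of the wider translation machinery were read beside them, where 1.23%, 0.642%, 0.628% and 0.508% of all probe sets were called at the 4 times. Of 18 elongation factors and other TOP genes, 2 fell and 0 rose in Mgmt-/- mice after MAM at 6 hr, called by the same rule: Pabpc1, the cytosolic poly(A)-binding protein, by 0.48 ± 0.11 (adjusted p = 0.023), and Fau, which encodes a ribosomal protein fused to a ubiquitin-like one, by 0.43 ± 0.07 (adjusted p = 0.0025; SE). Pabpc1 fell again at 24 hr by 0.55 and at 48 hr by 0.68 (adjusted p = 0.0040 at the earlier time and 0.0045 at the later), and these were the only calls of the list at those times. Of 76 mitochondrial ribosomal proteins 2 fell at 6 hr, Mrpl50 by 0.47 ± 0.06 (adjusted p = 4.2e-04) and Mrpl18 by 0.41 ± 0.08 (adjusted p = 0.0081; SE), and Mrpl18 again at 24 hr by 0.43 (adjusted p = 0.042). The median of that list was -0.12 at 6 hr and -0.14 at 24 hr, where the cytosolic genes had -0.07 and -0.10. Without the fold limit 13 of the 76 mitochondrial genes and 5 of the 18 TOP genes fell at 6 hr. By that rule 8 of the 46 cytosolic genes fell (2.65% of all probe sets). At 24 hr 4 mitochondrial and 2 TOP genes fell, beside 1 cytosolic gene (0.915%). In these lists 0 genes rose at either time.

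Of 41 ribosome biogenesis genes 1 rose and 1 fell at 6 hr: Rrp1b, a nucleolar protein, by 0.49 (adjusted p = 0.044) and Ddx10, a DEAD-box helicase, by 0.47 (adjusted p = 0.015). Rrp1b differed by 0.05 in set 1 and 0.93 in set 2, and Ddx10 fell again at 48 hr by 0.39 (adjusted p = 0.050). Of 24 mTOR pathway genes 2 rose and 0 fell at 6 hr: Deptor, an inhibitor of mTOR, by 0.40 ± 0.07 (adjusted p = 0.0029) and Mknk2, a kinase of the cap-binding protein eIF4E, by 0.38 ± 0.07 (adjusted p = 0.0041; SE). At 168 hr Ddit4, which inhibits mTOR through Tsc2, rose by 0.80 ± 0.14 (adjusted p = 0.0058). Without the fold limit, 1 biogenesis gene rose and 2 fell at 6 hr, and 2 mTOR pathway genes rose and 1 fell. In wt mice MAM called 0 genes of these 4 lists at any time. With the 3′/5′ index as a covariate none of these calls remained at 6 or 24 hr, while Pabpc1 at 48 hr (-0.81, adjusted p = 0.031) and Ddit4 at 168 hr (0.76, adjusted p = 0.0042) were still called and Ddx10 at 48 hr was not.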

How the data were processed

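The authors deposited log2 values of 94 Affymetrix arrays, which the affy package computed by its RMA defaults: background was subtracted, arrays were brought to common quantiles, and the probes of a set were summarised by median polish. No source used here gives the version or says if all times were normalized as 1 set. Quantile normalization makes values relative to each array's distribution, so a shift shared by most genes would not show. The deposited values were not identical in distribution: the medians of the 93 arrays ran from 5.31 to 5.58. Probe sets were tied to genes by the platform annotation: of 45101, 34958 name 1 gene, 932 several and 9211 none. Control probe sets (64) were left out of tests, and missing values numbered 0. Array data carry no read depth, and the number of mice limits the precision.

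Each time point was fitted with limma 3.58.1 in R 4.3.3 (lmFit, eBayes; 4 groups plus number set), with Benjamini-Hochberg adjustment over 45037 probe sets. Number set was used in place of laboratory, which the labels do not name, and the link between them is assumed. The methods dropped probe sets whose effects differed between laboratories (p of 0.15 or below); this filter was an alternative, as were those in the closing section. Mean levels above 10 log2 units were called bright. The members and gene lists were chosen with earlier results of these data known. Named genes were up to 6 called genes per comparison or the 3 of smallest p, the 5 largest F values, paralog pairs, stalk genes, Rpsa, Rps6, Rpl11 and Rpl22, genes whose probe sets disagreed, and up to 4 called genes per list. Genes past the adjusted p alone were named as well, a choice made after their values were seen. Nothing says that samples were other than separate mice. The scripts were tested on simulated data with known changes. RefSeq start sequences were matched by gene identifier for 40 of 46 genes.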

Additional observations from a re-analysis of the deposited data

Results flagged for a closer look

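In 80 groups of 5 or 6 arrays (Rps4l, Rpl27a, Rplp0, Rpl11 and the mean deviation of the bright genes), 5 held an array far from the others, where chance flags about 1 in 20. These were Rpl11 at 11.78 (the lowest) in wt vehicle at 6 hr, Rpl27a at 5.80 (the lowest) in wt vehicle at 24 hr, and the mean deviation of 0.022 (the highest) in Mgmt-/- MAM at 6 hr, each on a set 1 array. On 1 set 1 array of Mgmt-/- vehicle at 48 hr both Rpl27a, at 5.87, and Rplp0, at 11.35, were far below the rest.

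In Mgmt-/- mice the MAM difference was larger or smaller in number set 2 than in number set 1 by a limma test of the difference itself. At 6 hr set 2 minus set 1 was -0.58 for Rpl11 (adjusted p = 0.0025), -0.49 for Rpl37 (0.041), -0.75 for Rps16 (0.012), -0.41 for Rps19 (0.0092) and 0.86 for Rpl27a (0.019). At 24 hr it was -0.40 for Rpl11 (adjusted p = 0.038), -0.86 for Rpl37 (0.0085), -0.60 for Rps20 (0.022) and -0.40 for Rps29 (0.047). The Rps16 probe set averaged 3.66, below the median of all values (5.36). The test was chosen after the values of each set were seen.

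On the array of Mgmt-/- MAM at 168 hr that was left out, which no comparison used, the liver marker list had a median of 13.62, against 6.85 at most on the other 93 arrays.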

How the results depend on the processing

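Of 166 counts recomputed other than by leaving out an array, 25 left the range of 1.5 times the count given above. In Mgmt-/- MAM against vehicle at 6 hr (2 genes called), 1 was called with the methods' filter, which kept 15 of the 46 genes, and 1 with the mean of all single-gene probe sets, 0 with the 3′/5′ index, 6 with number set 2 alone and 8 without the fold limit. By adjusted p alone (8 genes), 0 passed with the index, 2 with set 1 alone and 12 with set 2 alone. Of all probe sets 0.00666%, 1.23% and 19% passed in that order. At 24 hr (1 called) 7 were called with set 2 alone, and 0 with the index, with set 1 alone, with the ordinary linear model, with centring on probe sets of like brightness and with the mean of all probe sets. By adjusted p alone (1 gene), 0, 0 and 11 passed with the index, set 1 and set 2, against 0.0311%, 1.22% and 5.75% of all probe sets. For Mgmt-/- minus wt in vehicle at 6 hr (1 called), 0 were called with the filter or the index, 5 with set 2 alone and 4 without the fold limit. At 24 hr (0 called) 2 were called with set 2 alone and 5 without the fold limit. Past the adjusted p alone, the counts of 4 and 5 at 6 and 24 hr became 0 and 0 with the index, 1 and 0 with set 1 alone and 13 and 4 with set 2 alone. Of all probe sets 4.47% and 5.36% passed with the index, 1.32% and 1.59% with set 1 alone and 42.2% and 15.7% with set 2 alone. The counts of 13 and 4 of 46 lie below those last shares. Between the genotypes after MAM the counts of 9, 5, 6 and 4 at the 4 times became 1, 0, 1 and 0 with the index, 2, 1, 0 and 0 with set 1 alone and 6, 10, 3 and 1 with set 2 alone. Of all probe sets 2.69%, 3.09%, 1.98% and 2.3% passed with the index. With set 1 alone 5.64%, 2.57%, 3.1% and 0.506% passed, and with set 2 alone 12.4%, 23.2%, 17.5% and 4.36%. For the difference of the MAM effect between genotypes at 6 hr (0 called), 1 was called with the filter, with the ordinary linear model and with probe sets of a mean of at least 6. The count over 16 groups (31) was 18 with the index and 6 with set 1 alone. Over time in vehicle (0 called), 5 genes passed in Mgmt-/- and 2 in wt with number set 2 only, and a mean of at least 6 gave 1 in wt. The counts by adjusted p alone and the single genes were recomputed as a choice made after seeing the data. Restricted sets hold fewer arrays and filters fewer genes; otherwise the cause was not tested.

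Leaving out each array in turn gave 2 to 3 genes in Mgmt-/- at 6 hr, 0 to 1 at 24 hr, 1 to 2 for the genotypes in vehicle at 6 hr, 0 to 1 for the difference between genotypes at 6 hr, and 0 to 0 for the other 12 comparisons so treated. Counting arrays by animal number within each set, the call at 24 hr was lost without any of the 6 Mgmt-/- vehicle arrays, without the third Mgmt-/- MAM array of set 1 or the first or the third of set 2, without the first wt MAM array of set 1 or the second of set 2, and without the first or second wt vehicle array of set 2. The count of 2 between genotypes in vehicle arose without the second wt vehicle array or the first or second Mgmt-/- vehicle array of set 1. The count of 1 for the difference of the MAM effect arose without the first wt MAM array or the third Mgmt-/- MAM array of set 2. Of 18 differences of single genes past the adjusted p (MAM in Mgmt-/-, and genotype in vehicle, at 6 and 24 hr), 18 missed it with the index, 15 with set 1 alone and 5 with set 2 alone, and 0 changed direction under these. Keeping the array with liver RNA left the counts at 168 hr at 0, and 27 genes varied over the 16 groups.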
